A study of Mus musculus with 4 samples.

Results

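The 42 genes described here encode the enzymes of cholesterol synthesis, the enzymes of fatty acid synthesis and desaturation, the regulators that control both, and the targets of the liver X receptors (LXR) that move cholesterol out of macrophages. They were chosen by name, each as the gene that a probe's RefSeq accession or gene name resolves to. The rule uses no measured value, but the genes were listed with earlier results of these data known. All 42 were among the 24055 genes tested, though Abca9 entered only through the vehicle arrays. The genes were divided by the regulator they are best known to answer to into 20 SREBP2-type, 10 SREBP1-type and 8 LXR-type genes, with 4 further genes of sterol trafficking and regulation.

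Expression was measured on 4 one-colour arrays of primary cultures of Kupffer cells, which are liver-resident macrophages, from male C57BL/6 mice 8 weeks old. The MaR1 group (2 arrays) had 24 h of 200 nM maresin 1, a lipid mediator made from docosahexaenoic acid, and the Veh group (2 arrays) had ethanol for the same time. Both groups were isolated by collagenase perfusion and Percoll centrifugation, plated in 10% serum and kept in 0.1% serum during treatment, so every culture compared here was in low-serum medium. Nothing in the labels ties the arrays of a group to separate animals or cultures, so p-values reflect the spread among 4 arrays and that spread may be technical.

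Cells sense cholesterol in the endoplasmic reticulum. When it is scarce, the transcription factors SREBP2 and SREBP1 are carried to the Golgi and cut free, and they switch on sterol synthesis and fatty acid synthesis, a step that the INSIG proteins hold back when sterols are plentiful. When cholesterol derivatives build up, LXR instead switches on the export pumps ABCA1 and ABCG1, apolipoproteins, and SREBP1 itself, which macrophages use to dispose of the lipid of the cells they engulf.

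Levels are log2 signal relative to the 75th percentile of the same array, and differences are MaR1 minus Veh on that log2 scale with limma's standard error (2 arrays in each group). A gene was called higher or lower where limma's two-sided adjusted p (Benjamini-Hochberg over all genes tested) was below 0.05. Kupffer cell markers were bright in both groups. Clec4f, whose lectin is made in the liver by Kupffer cells, had levels of 6.46 and 6.39 on the MaR1 arrays, against 6.43 and 6.34 on the Veh arrays. Marco, the most abundant of 11 Kupffer cell markers, had levels of 8.24 on both MaR1 arrays, against 8.46 and 8.39 on the Veh arrays. Its difference of -0.19 did not pass (adjusted p = 0.0905). Of the 11 markers, 1 was higher (Csf1r, 0.29, adjusted p = 0.0471) and 1 lower (Adgre1, -0.67, adjusted p = 0.00634), 18.2% against 24% of all genes. Differences were positive in 7 and negative in 4 of the 11. The summed linear signal of these markers was 1160 to 1190 times the 75th percentile on the MaR1 arrays and 1200 to 1250 times on the Veh arrays. MaR1 and Veh sat at different positions of 1 slide, so position and treatment cannot be told apart.

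Most genes of sterol and fatty acid handling differed little between MaR1 and Veh cultures. Of the 41 genes measured in both groups, 3 were higher (Scd2, Insig1 and Abcg1), 4 were lower (Lpl, Fads1, Tm7sf2 and Sqle) and 34 did not pass. The called share, 17.1%, stood beside 24% of all genes tested, with 11.2% of all genes called higher and 12.8% called lower. Abca9 was also called lower, which made 19% of all 42, but it entered the test only because it was well above background on the Veh arrays, so its call lends no support. The median difference of the 42 genes was -0.07, against -0.02 for all genes. Disregarding sign, their median difference was 0.11, against 0.18 for all genes, and 29 of the 42 lay within 0.2 of zero. The values of the MaR1 and Veh arrays did not overlap for 76.2% of the 42 genes and for 69.6% of all genes, with 11 of the 42 above and 21 below on the MaR1 arrays (32.7% and 36.8% of all genes).

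**Figure D1:**
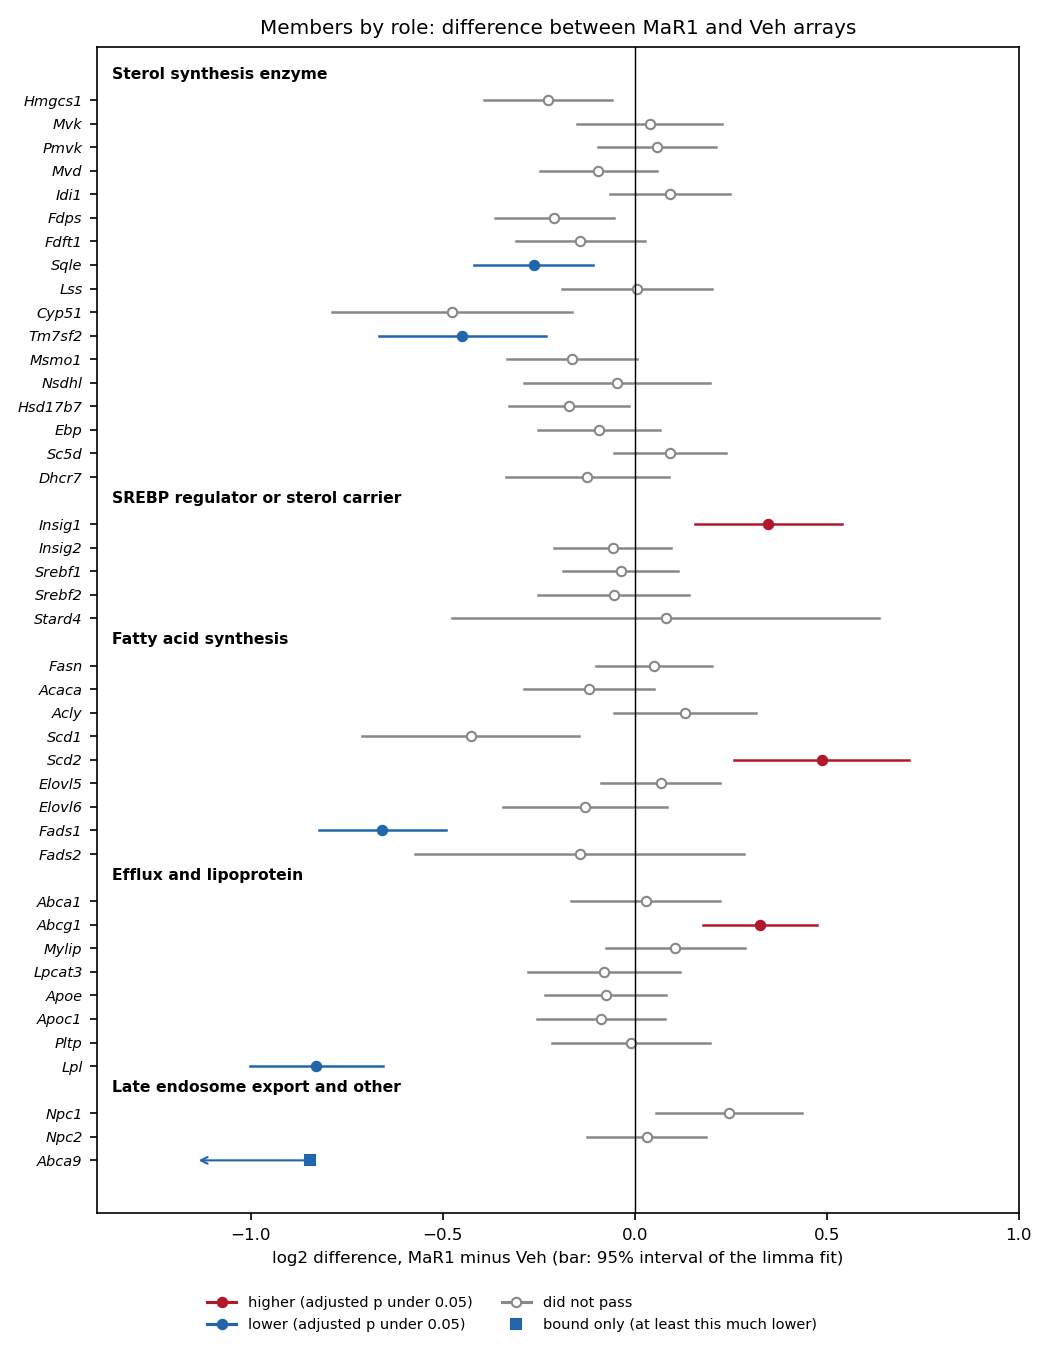
Log2 difference, MaR1 minus Veh, of each of the 42 genes with its 95% interval, grouped by role; filled points passed limma's adjusted threshold and the square with an arrow marks Abca9, whose difference is only a bound. Most points lie close to zero, with Lpl, Fads1 and the bound of Abca9 farthest to the left and Scd2, Insig1 and Abcg1 to the right.

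Promoter sequences of Hmgcs1, Insig1 and Tm7sf2 are shown first. SREBP2 is known to act through short elements near the start of its target genes, together with factors that bind CCAAT boxes. RefSeq windows running from 250 bases before to 50 bases after the start (GRCm38.p6) matched 31 of the 42 genes by symbol. The called genes Lpl, Fads1, Scd2, Abcg1 and Sqle had no window, so they were not searched. Each is given 5' to 3' on the gene's own strand in lower case, with motif matches in capitals. ATTGG is CCAAT read on the opposite strand, and TCACCCCAC is a match to the sterol element type TCACNCCAC. Insig1 and Tm7sf2 were called, and Hmgcs1 is shown because it held the one match to the sterol element among the 31 genes.
Hmgcs1, chr13:119690101-119690400, plus strand: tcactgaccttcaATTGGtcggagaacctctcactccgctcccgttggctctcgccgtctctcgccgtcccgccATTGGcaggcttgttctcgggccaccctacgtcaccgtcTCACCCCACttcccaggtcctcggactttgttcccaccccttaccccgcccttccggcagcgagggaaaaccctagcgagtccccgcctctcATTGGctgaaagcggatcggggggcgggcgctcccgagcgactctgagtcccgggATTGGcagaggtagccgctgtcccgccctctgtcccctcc
Insig1, chr5:28071162-28071461, plus strand: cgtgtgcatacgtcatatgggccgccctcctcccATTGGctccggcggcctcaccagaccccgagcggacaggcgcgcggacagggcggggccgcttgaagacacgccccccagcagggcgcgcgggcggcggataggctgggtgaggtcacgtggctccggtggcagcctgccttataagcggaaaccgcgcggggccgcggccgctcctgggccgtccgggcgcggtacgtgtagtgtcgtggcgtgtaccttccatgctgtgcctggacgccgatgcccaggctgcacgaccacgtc
Tm7sf2, chr19:6067801-6068100, minus strand: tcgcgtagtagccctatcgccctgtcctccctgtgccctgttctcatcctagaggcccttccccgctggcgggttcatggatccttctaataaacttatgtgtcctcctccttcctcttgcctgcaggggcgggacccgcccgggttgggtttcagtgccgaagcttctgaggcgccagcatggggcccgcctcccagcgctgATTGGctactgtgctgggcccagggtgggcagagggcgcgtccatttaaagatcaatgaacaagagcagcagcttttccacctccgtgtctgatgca

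Both strands were searched, and no motif searched overlaps another in the sequences shown. TCACNCCAC was found in 1 of the 31 genes and in 1.44% of the 27025 genes with a window. The LXR-type element, AGGTCA repeated after a gap of 4 bases, was in 0 of the 31 genes and in 0.0148% of all genes with a window. The called LXR-type genes Abcg1 and Lpl are not among the 31. CCAAT, a search added after the sequences had been seen, was in 16 of 16 SREBP2-type genes with a window, in 4 of 7 SREBP1-type genes and in 3 of 5 LXR-type genes, against 41.1% of all genes. Counted by window, 16 of 19 of SREBP2-type genes held it, against 37.4% of all 32851 windows. The Hmgcs1 window held 4 CCAAT matches and its sterol element began at position -137 relative to the start, while the Insig1 and Tm7sf2 windows held 1 CCAAT match each. A match describes these letters and not a bound site, and the windows of genes that were called and of genes that were not both held CCAAT.

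The 17 enzymes of sterol synthesis had mostly negative differences between MaR1 and Veh, by small amounts. Of these, 2 were lower (Tm7sf2 and Sqle), 0 were higher and 15 did not pass limma's adjusted test (11.8% called, beside 24% of all genes). An unadjusted p below 0.05 was reached by 6 of the 17 and by 40.7% of all genes. The median difference was -0.12 and 12 of the 17 differences were negative, 70.6%, against 52.7% of all genes. Tm7sf2, which encodes a sterol reductase that acts after the sterol ring has closed, had levels of -0.72 and -0.87 on the MaR1 arrays, against -0.39 and -0.30 on the Veh arrays. Both MaR1 arrays lay below both Veh arrays. Tm7sf2 fell by 0.45 ± 0.08 on the log2 scale (1.36-fold lower, adjusted p = 0.0266), and its dimmer second probe gave -0.49 (adjusted p = 0.0199 among probes). Sqle, which encodes squalene epoxidase, a control point of the later pathway, had levels of -2.44 and -2.42 on the MaR1 arrays, against -2.19 and -2.14 on the Veh arrays. The groups were separate and close within themselves, and Sqle fell by 0.26 ± 0.06 on the log2 scale (1.2-fold lower, adjusted p = 0.0415). Both calls were lost whichever array was left out (adjusted p from 0.0508 to 0.108 for Tm7sf2 and from 0.121 to 0.175 for Sqle), and that of Sqle also with quantile normalization, with normexp and in the authors' value table.

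The other 15 sterol enzymes ran from -0.48 to 0.09. Cyp51, which encodes the demethylase of lanosterol, had the largest of these differences, with levels of -2.79 and -3.04 on the MaR1 arrays, against -2.36 and -2.52 on the Veh arrays. Its MaR1 values lay below its Veh values, but they were also spread apart, and the difference of -0.48 ± 0.12 did not pass (adjusted p = 0.0515). It did pass in 5 of the alternatives, among them the replicate block (0.0377) and the stricter filter on dim probes (0.0403). Hmgcs1, which encodes the enzyme that makes HMG-CoA, had levels of 2.37 and 2.32 on the MaR1 arrays, against 2.53 and 2.60 on the Veh arrays (-0.23 ± 0.06, adjusted p = 0.0668). Fdps, which encodes the enzyme that makes farnesyl diphosphate, had levels of 0.45 and 0.46 on the MaR1 arrays, against 0.64 and 0.69 on the Veh arrays (-0.21 ± 0.06, adjusted p = 0.0665). Hmgcs1 and Fdps were thus separate between the groups without passing here, though both passed as lower with normexp and with a variance trend, and Hmgcs1 also in the authors' value table (0.0444) and after quantile normalization (0.049). Of the late enzymes of the pathway, Hsd17b7 gave -0.17 (adjusted p = 0.102), Msmo1 -0.16 (0.131), Dhcr7 -0.12 (0.301), Ebp -0.09 (0.301) and Nsdhl -0.05 (0.727). Fdft1, which encodes squalene synthase, gave -0.14 (0.169), and Mvd, an enzyme of the mevalonate steps, gave -0.09 (0.275). On the positive side were the mevalonate kinase gene Mvk at 0.04 (0.703), Pmvk, which acts after it, at 0.06 (0.48), the isomerase gene Idi1 at 0.09 (0.295), the desaturase gene Sc5d at 0.09 (0.273) and the lanosterol synthase gene Lss at 0.01 (0.962), none of which passed. The signs of Mvk and Lss turned under some settings, as did that of Nsdhl.

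Insig1 was called higher, while 0 of the 17 sterol enzymes were called higher and 5 of them had positive differences. Insig1 encodes the retention protein that keeps SREBP in the endoplasmic reticulum and is itself a classical SREBP target. Its levels were -1.95 and -1.83 on the MaR1 arrays, against -2.22 and -2.26 on the Veh arrays. All MaR1 values lay above all Veh values, and Insig1 rose by 0.35 ± 0.07 (1.27-fold, 95% interval of the log2 difference 0.16 to 0.54, adjusted p = 0.0357). The call was lost when any 1 array was left out (adjusted p from 0.06 to 0.139). Insig2, which encodes the related retention protein and is not driven by SREBP in the same way, gave -0.06 (adjusted p = 0.484), and its 3 probes ran from -0.06 to 0.16.

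The transcription factor genes differed little. Srebf1, which encodes SREBP1 and is itself an LXR target, had levels of 2.70 and 2.71 on the MaR1 arrays, against 2.73 and 2.76 on the Veh arrays. The values lay within 0.1 of each other, and the difference was -0.04 ± 0.06 (95% interval -0.19 to 0.11, adjusted p = 0.652). Srebf2, which encodes SREBP2, had levels of -0.74 and -0.75 on the MaR1 arrays, against -0.76 and -0.62 on the Veh arrays. Its groups overlapped, with an interval of -0.25 to 0.14 (adjusted p = 0.603). These are transcript levels, and the cleavage that activates the SREBP proteins was not measured. Stard4, which encodes a carrier of cholesterol between membranes, was dim and spread, at -3.86 and -3.29 on the MaR1 arrays, against -3.70 and -3.61 on the Veh arrays. Its groups overlapped (0.08 ± 0.21, adjusted p = 0.793), and its second probe gave 0.60 (adjusted p = 0.0576 among probes).

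The 9 enzymes of fatty acid synthesis went in both directions, with 1 higher (Scd2), 1 lower (Fads1) and a median of -0.12. The called share was 22.2%, beside 24% of all genes. Fads1 encodes the desaturase that makes arachidonic and eicosapentaenoic acid from their precursors. Its levels were -0.51 and -0.57 on the MaR1 arrays, against 0.15 and 0.09 on the Veh arrays. The arrays of each group lay close together and the groups far apart, and Fads1 fell by 0.66 ± 0.06 on the log2 scale (1.58-fold lower, adjusted p = 0.00699). The call held when any 1 array was left out (adjusted p from 0.0333 to 0.0427). Fads2, which encodes the partner desaturase of the same pathway, was dim, at -5.00 and -5.04 on the MaR1 arrays, against -4.66 and -5.09 on the Veh arrays. Its groups overlapped, and it did not pass (-0.14 ± 0.16, adjusted p = 0.535).

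The stearoyl-CoA desaturase genes Scd1 and Scd2, whose products make monounsaturated fatty acids, had differences of opposite sign, of which that of Scd2 passed. Scd2 had levels of 1.07 and 0.92 on the MaR1 arrays, against 0.57 and 0.45 on the Veh arrays. The groups did not overlap, and Scd2 rose by 0.49 ± 0.08 (1.40-fold, adjusted p = 0.0252), a call lost whichever array was left out (adjusted p from 0.059 to 0.0994). Scd1 had levels of -0.35 and -0.61 on the MaR1 arrays, against -0.03 and -0.07 on the Veh arrays. Its groups did not overlap either, but the difference of -0.43 ± 0.10 did not pass (95% interval -0.71 to -0.14, adjusted p = 0.0528). It passed in 5 of the alternatives, such as the stricter filter (0.0419) and without MaR1 replicate 1 (0.0404). The log2 ratio of Scd2 to Scd1 within an array, a comparison added after the values had been seen, was 1.42 and 1.53 on the MaR1 arrays, against 0.60 and 0.53 on the Veh arrays. Its zero has no meaning across probes, and only its shift of 0.91 between the groups can be read. The exact two-sided permutation test gave p = 0.333, the smallest p that 2 arrays against 2 allow, and 0.4 after adjustment over the 6 such pairs computed.

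The other enzymes that build fatty acids differed little at their brightest probe. Fasn, which encodes fatty acid synthase, had levels of 1.44 and 1.40 on the MaR1 arrays, against 1.37 on both Veh arrays. The MaR1 values were higher by a small margin that did not pass (0.05 ± 0.06, 95% interval -0.10 to 0.20, adjusted p = 0.539). Acly, which encodes the enzyme that makes cytosolic acetyl-CoA, gave 0.13 and Acaca, which encodes acetyl-CoA carboxylase, gave -0.12 (adjusted p = 0.228 for each). The probes of Acly disagreed in sign (0.13 and -0.13). The dimmer probes of Acaca gave -0.21 and -0.29 (adjusted p = 0.131 and 0.118 among probes). The elongase genes Elovl5 and Elovl6 gave 0.07 (adjusted p = 0.427) and -0.13 (0.286), and a dim second probe of Elovl5 gave -0.32 (0.0794 among probes).

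**Figure D2:**
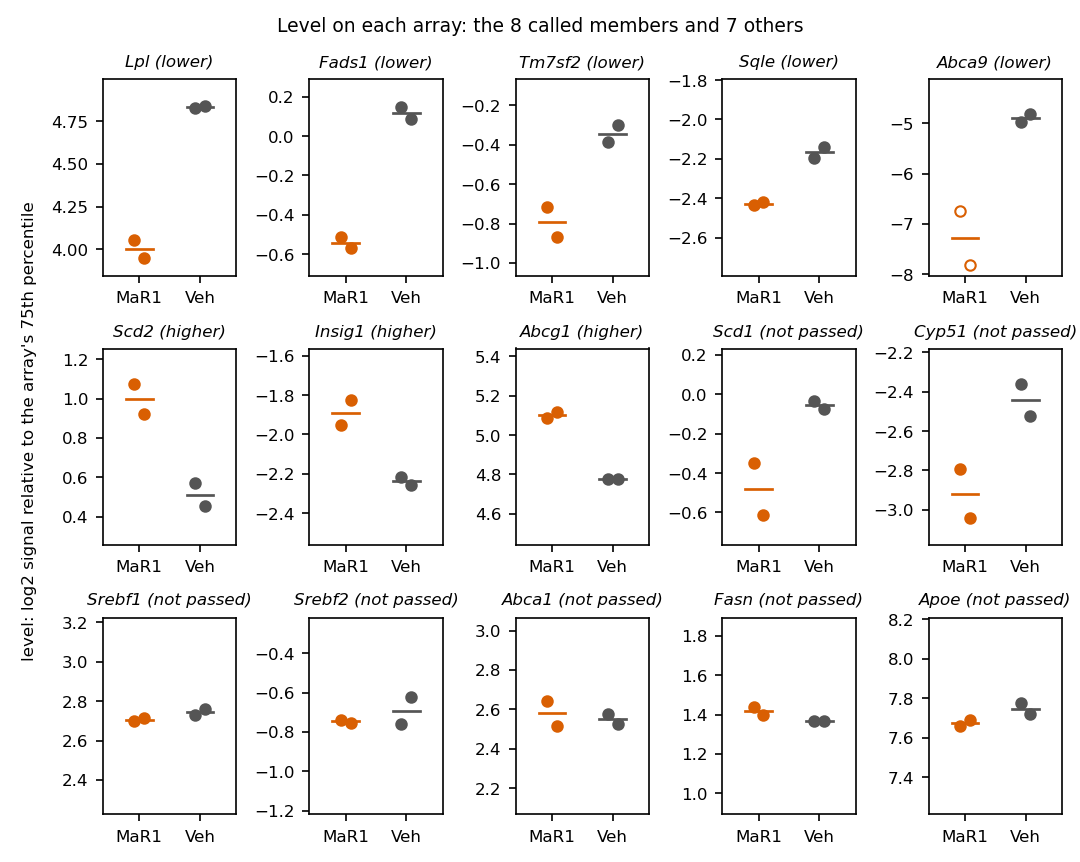
Level of 15 genes on each array, in log2 units relative to the array's 75th percentile, with MaR1 arrays left of Veh arrays; hollow points are not well above background. Among genes measured in both groups, Lpl and Fads1 show the widest gaps between MaR1 and Veh, whereas Srebf1, Srebf2, Abca1, Apoe and Fasn lie at nearly one level.

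Of the 8 LXR-type genes of efflux and lipoproteins, 1 was higher (Abcg1), 1 was lower (Lpl) and 6 did not pass, with a median of -0.04. The called share was 25%, beside 24% of all genes. Abcg1, which encodes a pump that passes cholesterol to high-density lipoprotein, had levels of 5.09 and 5.12 on the MaR1 arrays, against 4.78 on both Veh arrays. Both MaR1 arrays were higher, and Abcg1 rose by 0.33 ± 0.05 (1.25-fold, 95% interval of the log2 difference 0.18 to 0.47, adjusted p = 0.0237). Its call was lost whichever array was left out (adjusted p from 0.0724 to 0.11) and with quantile normalization. Abca1, which encodes the pump that loads lipid-poor apolipoprotein, had levels of 2.64 and 2.52 on the MaR1 arrays, against 2.58 and 2.53 on the Veh arrays. The groups overlapped and the difference was 0.03 ± 0.07 (95% interval -0.17 to 0.22, adjusted p = 0.792), with a sign that turned under 5 of the other settings. The further LXR-type genes lay between -0.09 and 0.11. Mylip, which encodes a ubiquitin ligase that limits lipoprotein uptake, gave 0.11 (adjusted p = 0.299), Lpcat3, which encodes a phospholipid-remodelling enzyme, -0.08 (0.458), and the phospholipid transfer protein gene Pltp -0.01 (0.929).

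Lpl had the largest difference among genes measured in both groups. It encodes lipoprotein lipase, which frees fatty acids from circulating triglyceride, and it is an LXR target that macrophages use to take up lipid. Its levels were 4.05 and 3.95 on the MaR1 arrays, against 4.83 and 4.84 on the Veh arrays. The groups lay far apart, and Lpl fell by 0.83 ± 0.06 on the log2 scale (1.78-fold lower, adjusted p = 0.00518). All 3 of its probes were called, at -0.83, -0.79 and -0.85. Its call held whichever array was left out (adjusted p from 0.0254 to 0.0342), and of the 8 called genes only Fads1 and Lpl did so (2 of 42), against 5.84% of all genes. The apolipoprotein genes Apoe and Apoc1, which macrophages secrete with cholesterol, were bright and nearly level. Apoe had levels of 7.66 and 7.69 on the MaR1 arrays, against 7.78 and 7.72 on the Veh arrays (-0.08 ± 0.06, 95% interval -0.23 to 0.08, adjusted p = 0.383), and Apoc1 gave -0.09 (0.341).

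Late endosomes release cholesterol from engulfed material through NPC2 and NPC1. Npc1 had levels of 3.82 and 3.78 on the MaR1 arrays, against 3.49 and 3.61 on the Veh arrays. The MaR1 arrays were higher, but the difference of 0.25 ± 0.07 did not pass (adjusted p = 0.0726). Npc2 gave 0.03 (adjusted p = 0.708) and overlapped between groups. Abca9, which encodes a transporter of the same family as ABCA1, read -6.74 and -7.83 on the MaR1 arrays, neither well above background, against -4.97 and -4.81 on the Veh arrays. As a bound, the Veh mean lay 1.80-fold above a floor on the MaR1 arrays. That floor is the dimmest signal counted as well above background on each MaR1 array (or the probe's own, if higher). The adjusted p of Abca9 in the limma fit (0.0206) rests on MaR1 values not well above background and on a filter passed through Veh alone. The bound rests on that filter too, so neither is support for a difference.

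Of the 42 genes, 17 had several kept probes, and in 13 of these all probes had the same sign. Hsd17b7 was the one gene whose probes differed in call. Its brighter probe gave -0.17 and its dimmer probe, at levels of -5.32 and -5.16 on the MaR1 arrays against -4.76 and -4.90 on the Veh arrays, gave -0.41 (adjusted p = 0.0419 among probes). No gene had probes called in opposite directions (0 of 17). Of the 63 kept probes of these genes, 3 were higher and 9 lower, while 24% of all 31110 kept probes were called.

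**Figure D3:**
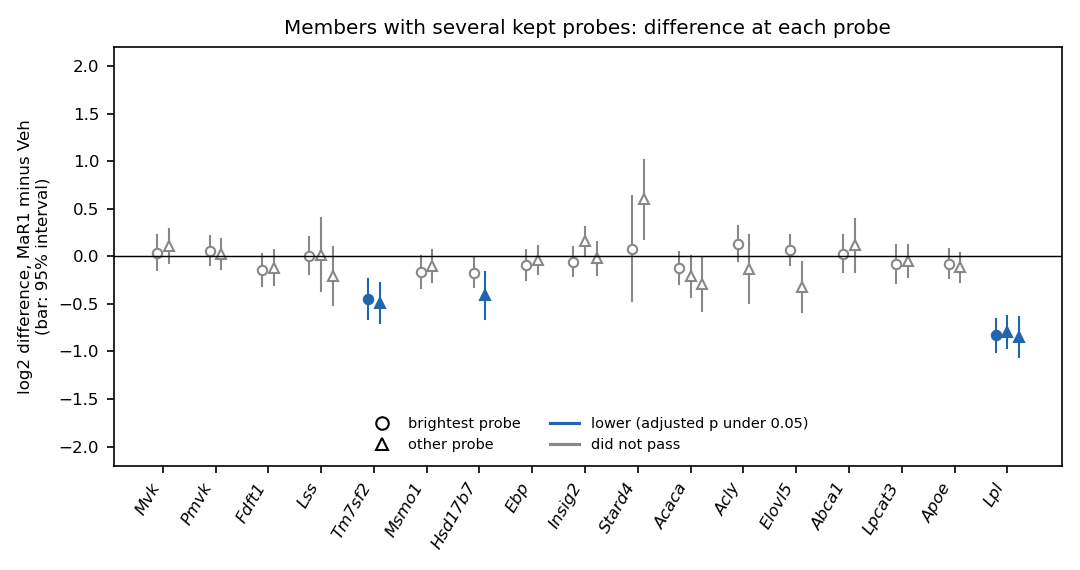
Log2 difference, MaR1 minus Veh, of every kept probe of the 17 genes with several kept probes; filled points passed limma's threshold adjusted over all probes. The 3 probes of Lpl lie together between -0.85 and -0.79, whereas the probes of Stard4, Elovl5, Insig2 and Acly differ in sign or size.

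For the 34 genes that did not pass, the 95% interval of the difference lay within 0.5 of zero in 30 and within 1 in all 34. The 4 exceptions at 0.5 were Cyp51, Scd1, Fads2 and Stard4, with ends as low as -0.79 (Cyp51) and as high as 0.64 (Stard4). Differences of the size seen for Lpl (-0.83) lay outside the interval of each of these 34 genes, as far as the spread between these arrays measures the error.

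Further genes of the same pathways were listed for comparison, with earlier results of these data known. Of 57 genes, 54 were tested (Acat2, Abcg5 and Nr0b2 were not well above background), and 6 were higher, 9 were lower and 39 did not pass (27.8% called, beside 24% of all genes), with a median of -0.09. Among sterol synthesis and uptake genes, 1 of 16 was higher and 3 were lower (25% called). Osbpl3, which encodes an oxysterol-binding protein relative, fell by 0.87 ± 0.06 on the log2 scale (adjusted p = 0.00387), with levels of -2.31 and -2.26 on the MaR1 arrays, against -1.41 and -1.42 on the Veh arrays. Lipa (-0.41), the lysosomal lipase gene that frees cholesterol from its esters, and Gramd1b (-0.30) were also lower, and Cnbp (0.31) was higher.

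The SREBP machinery held 2 higher genes of 6, Rnf139 and Ube2g2 (0.27), which encode a ubiquitin ligase and a conjugating enzyme of the endoplasmic reticulum. The called share of the 6 was 33.3%, beside 24% of all genes. Rnf139 had levels of 1.97 and 2.07 on the MaR1 arrays, against 1.66 and 1.71 on the Veh arrays (0.33 ± 0.07, adjusted p = 0.0333). Scap, which encodes the escort of SREBP, gave 0.06 (adjusted p = 0.522). Among 17 further genes of fatty acid synthesis, 3 were lower and 0 higher by limma's adjusted test (17.6% called, beside 24% of all genes). An unadjusted p below 0.05 was reached by 5 of the 17 and by 40.7% of all genes. Mid1ip1, which encodes an activator of acetyl-CoA carboxylase, fell by 0.73 ± 0.06 on the log2 scale (adjusted p = 0.00515), with levels of 1.74 and 1.70 on the MaR1 arrays, against 2.44 and 2.45 on the Veh arrays. The fatty acid and acetate activating genes Acsl1 (-0.41) and Acss2 (-0.42) were the other lower genes.

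The largest differences lay among LXR partners and enzymes that make or break oxysterols, the natural LXR ligands. Of the 15 genes measured that were listed as LXR genes, partners and other targets, 3 were higher, 3 were lower and 9 did not pass. The called share was 40%, beside 24% of all genes. Because the list was drawn up with earlier results of these data known, this share is descriptive only. Ch25h, which encodes a hydroxylase that turns cholesterol into an oxysterol, had levels of 4.94 and 5.08 on the MaR1 arrays, against 2.78 and 2.76 on the Veh arrays. The groups were far apart, and Ch25h rose by 2.24 ± 0.07 (4.71-fold, adjusted p = 0.00154). Cyp7b1, which encodes an enzyme that breaks down oxysterols, had levels of -0.73 and -0.44 on the MaR1 arrays, against -1.67 and -1.83 on the Veh arrays. It rose 2.24-fold (adjusted p = 0.00936). Cyp27a1, which encodes the mitochondrial sterol hydroxylase, had levels of -3.13 and -3.08 on the MaR1 arrays, against -2.59 and -2.66 on the Veh arrays, and fell by 0.48 ± 0.06 on the log2 scale (adjusted p = 0.0137). The 3 oxysterol enzymes thus changed in different directions. The calls of Ch25h and Cyp7b1 held when any 1 array was left out.

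Rxra, which encodes the obligate partner of LXR and of several other nuclear receptors, had levels of 4.15 and 4.10 on the MaR1 arrays, against 5.08 on both Veh arrays. Rxra fell by 0.95 ± 0.06 on the log2 scale (1.93-fold lower, adjusted p = 0.00334), and this held whichever array was left out. Nr1h3, which encodes LXR alpha, had levels of 5.03 and 4.96 on the MaR1 arrays, against 5.20 and 5.18 on the Veh arrays, and its difference of -0.20 did not pass (adjusted p = 0.0807). Nr1h2, which encodes LXR beta, gave 0.14 (adjusted p = 0.244). The LXR target Arl4c, a small GTPase gene, had levels of 2.53 and 2.46 on the MaR1 arrays, against 1.98 and 1.90 on the Veh arrays. It rose by 0.55 ± 0.07 (adjusted p = 0.0115), as Abcg1 did, while Abca1 and Srebf1 did not pass. Abca7 (-0.30), another transporter gene of the list, was lower. Leaving out 1 array, the difference ran from 2.17 to 2.31 for Ch25h and from 1.02 to 1.31 for Cyp7b1. It ran from -0.98 to -0.92 for Rxra, from -0.90 to -0.84 for Osbpl3 and from -0.75 to -0.71 for Mid1ip1. The call of Arl4c was lost without Veh replicate 2 or either MaR1 array (adjusted p up to 0.0575). Cyp27a1 and Rnf139 lost theirs whichever of the 4 was left out (up to 0.0714 and 0.14).

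**Figure D4:**
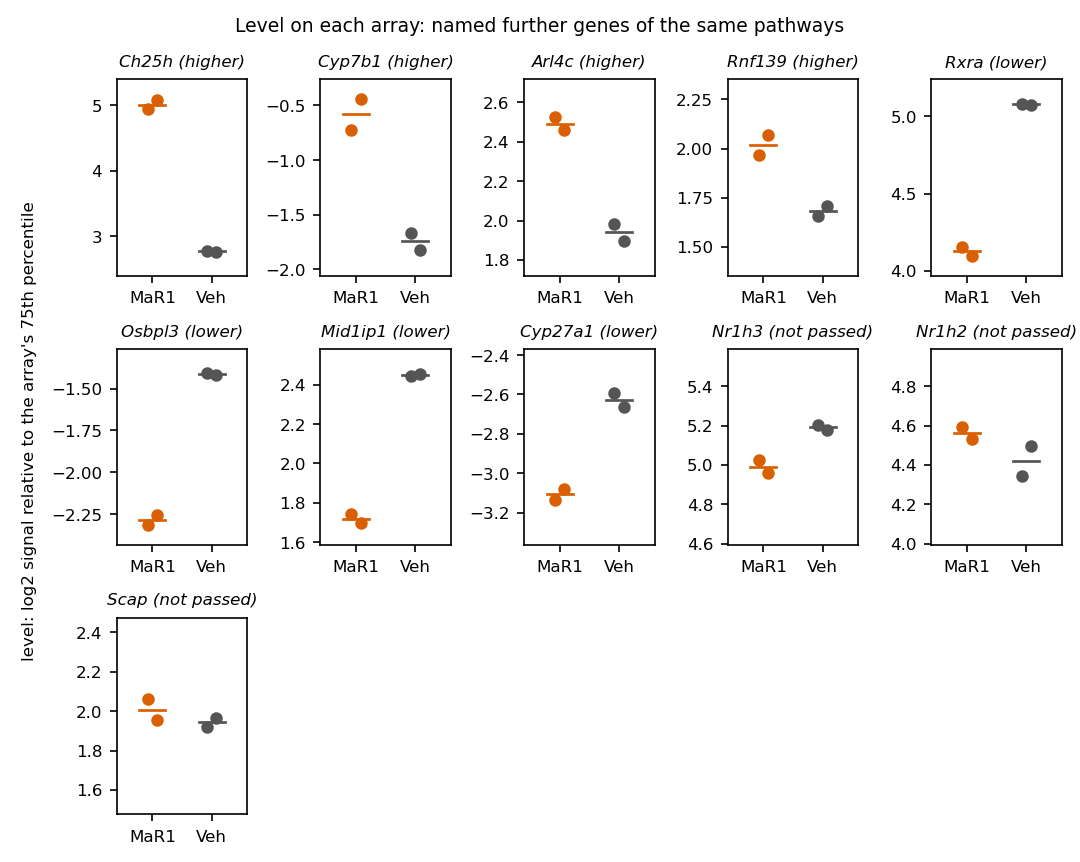
Level of 11 further pathway genes on each array, in log2 units relative to the array's 75th percentile, with MaR1 arrays left of Veh arrays. Ch25h, Cyp7b1, Arl4c and Rnf139 were higher on the MaR1 arrays, and Rxra, Osbpl3, Mid1ip1 and Cyp27a1 lower, while Scap, Nr1h3 and Nr1h2 did not pass.

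Markers of other liver cells were read in the same arrays, and in bulk RNA fewer cells of a type and less RNA per cell cannot be told apart. Of 13 hepatocyte markers measured, 2 were lower (Ttr and Apoc3) and 0 higher, a called share of 15.4% that is below the 24% of all genes, with a median of -0.27 and a summed linear signal of 30.2 to 30.5 times the 75th percentile on the MaR1 arrays, against 34.1 to 36.5 times on the Veh arrays (most abundant, Trf). Of 6 stellate cell markers measured, 2 were lower and 0 higher (33.3% called), with a median of -0.41 and a summed signal of 3.06 to 3.12 times on the MaR1 arrays, against 3.95 to 4.07 times on the Veh arrays (most abundant, Dcn). Their defining markers Lrat and Des, and the hepatocyte marker Cps1, were not kept. Hepatocytes make sterols and fatty acids too, so these values stand beside the lower genes above, Fads1, Tm7sf2, Sqle, Osbpl3, Mid1ip1 and Cyp27a1 included, and their part in those differences was not tested.

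Across all genes, 24% were called, 11.2% higher and 12.8% lower, and the shares in this paragraph stand beside that. Dendritic cell markers were higher in 5 of 6 measured (83.3%, median 0.86). Their summed signal was 39.2 to 41.3 times on the MaR1 arrays, against 12.3 to 12.4 times on the Veh arrays. Batf3 was the most abundant, and Xcr1 was not kept. The remaining marker, Flt3, had the opposite sign and did not pass (-0.28, adjusted p = 0.0571). Of 5 B cell markers, 3 were higher (60%, median 0.65), with 3.43 to 3.63 times on the MaR1 arrays, against 1.93 to 2.17 times on the Veh arrays (most abundant, Cd79b, with Ebf1 not kept). Pax5 had the opposite sign and did not pass (-0.42, adjusted p = 0.137). Of 8 markers of sinusoidal endothelium, 3 were higher (37.5%, median 0.15), with 162 to 165 times on the MaR1 arrays, against 143 to 149 times on the Veh arrays (most abundant, Egfl7, with Kdr not kept). Differences were positive in 5 and negative in 3 of the 8. The negative ones, Lyve1 (-0.16), Clec4g (-0.18) and Ptprb (-0.16), did not pass. Of 6 T or NK cell markers, 1 was higher and 3 were lower (66.7% called, median -0.28), with 10.3 to 10.5 times on the MaR1 arrays, against 12.4 to 12.5 times on the Veh arrays (most abundant, Cd3d). Of 5 neutrophil markers, 0 were called by limma (0 also at an unadjusted p below 0.05; median 0.06), with 1.89 to 1.91 times on the MaR1 arrays, against 1.83 to 1.86 times on the Veh arrays (most abundant, Elane; Ly6g not kept). The part of dendritic, B or endothelial cells in the higher levels of Scd2, Insig1, Abcg1, Ch25h, Cyp7b1 and Arl4c was not tested.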

How the data were processed

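Cy3-labelled Kupffer cell RNA was read on 4 one-colour Agilent arrays, 2 MaR1 and 2 Veh, grouped by the treatment label. The authors made the deposited linear intensity values, per the file headers, with Agilent Feature Extraction 11.0.1.1 (also in the submitters' processing notes), which subtracts background within an array. The deposited value table holds log2 values of unstated scale and normalization. Its columns followed log2 of the processed intensity of the same arrays (r = 1), and only an alternative used it.

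Levels were computed as log2 processed signal less the array's 75th percentile (946 and 847 on the MaR1 arrays, 961 and 988 on the Veh arrays) over 59305 spots that were not controls. Spots with an outlier mark (94 to 123 per array) were left out, no spot was saturated, and 54.4% to 55.6% of probes were well above background. Probes well above background on both MaR1 arrays or both Veh arrays were kept, which left 31110 of 56605 probes. Probes were named through their RefSeq accession (32994 matched, 58.3%), and the brightest kept probe stood for each of 24055 genes. Of these, 14488 had a RefSeq symbol. The others went by the array's own systematic name and are counted as genes in every share of all genes. The test was limma's moderated one (lmFit, eBayes, version 3.58.1, R 4.3.3), two-sided, with Benjamini-Hochberg adjustment over all genes, a threshold of 0.05, a prior SD of 0.0738 and 2.27 prior degrees of freedom. The fit was run on simulated data with a smaller share of changed genes than was called here. The search for TCACNCCAC was checked on made-up sequences, and the searches for CCAAT and the LXR-type element were not. The number of arrays limits the precision.

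The 42 genes, the further lists and the markers were chosen with earlier results of these data known. Values per array are given for the called genes of each role, for Srebf1, Srebf2, Insig1, Abca1, Abcg1, Scd1, Scd2, Fasn and Apoe, and for up to 4 called further genes in each direction with Scap, Nr1h3 and Nr1h2; 2 further genes that this rule names are not reported here. Other genes given per array (Cyp51, Hmgcs1, Fdps, Stard4, Fads2 and Npc1), the ratios within an array and the CCAAT search were chosen after the values or sequences were seen. Alternatives were quantile normalization, normexp (offset 50) on the median spot signal alone and with quantile normalization, the authors' value table, a stricter or no filter on dim probes, averaging a gene's probes, a variance trend, a replicate block, and leaving out each array.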

Additional observations from a re-analysis of the deposited data

How the results depend on the processing

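Lpl and Fads1 kept their direction and call under all 13 alternatives. Sqle lost its call under 10 of them, Abcg1 under 7, Tm7sf2 and Insig1 under 6 and Scd2 under 5, always including no filter and each array left out, and Abca9 under 3 of 11. The cause was not tested.

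With no filter on dim probes, which adds probes without signal to the test, 0 of the 42 genes were higher and 2 lower by limma, with 0 higher of SREBP2-type, SREBP1-type and LXR-type genes and 0 lower of SREBP2-type and trafficking genes, 2 further genes higher and 4 lower, and 1087 higher and 972 lower of all genes. A variance trend gave 10 lower of the 42 genes (6 SREBP2-type, 2 SREBP1-type), 1 trafficking gene higher (Npc1), 17 further genes lower, and 4525 higher and 4670 lower of all genes. Normexp on the median signal gave 9 lower (5 SREBP2-type, 2 SREBP1-type), 1 trafficking gene higher and 14 further genes lower, and with quantile normalization 10 lower (5 SREBP2-type, 2 SREBP1-type, 2 LXR-type) and 16 further genes lower. Under these 3 settings Hmgcs1, Fdps, Cyp51 and Scd1 passed as lower. Hmgcs1 also passed with quantile normalization alone (adjusted p = 0.049) and in the authors' value table (0.0444), Cyp51 with the stricter filter (0.0403) and the replicate block (0.0377), and Scd1 with the stricter filter (0.0419) and without MaR1 replicate 1 (0.0404). Dhcr7 passed as lower with both normexp settings, Apoe with normexp and quantile normalization, Msmo1 with the variance trend and Hsd17b7 with the mean of its probes. Quantile normalization alone gave 0 LXR-type genes higher and 14 further genes lower. The authors' value table gave 15 further genes lower and, as with the stricter filter, 0 trafficking genes lower, since Abca9 was not tested there. The stricter filter gave 2 SREBP1-type genes lower.

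Both groups have a replicate 1 and a replicate 2, but no label says what the number marks, and deviations of same-numbered arrays did not correlate (-0.026, from 2 pairs). With a replicate block, 1 of the 42 genes was higher, 0 of the SREBP2-type and 0 of the LXR-type higher, 1 SREBP2-type lower (Cyp51, while Tm7sf2 and Sqle lost their calls, adjusted p = 0.0611 and 0.0857), 3 further genes higher, and 1766 higher and 1926 lower of all genes.

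Leaving out 1 array gave 0 to 0 higher and 2 to 4 lower of the 42 genes, by type 0 higher throughout, 0 to 0 lower (SREBP2-type), 1 to 2 lower (SREBP1-type), 1 to 1 lower (LXR-type) and 0 to 1 lower (trafficking). For further genes it gave 2 to 3 higher and 3 to 3 lower, and for all genes 1009 to 1334 higher and 914 to 1489 lower. With all arrays, 14 of the 42 genes had an unadjusted limma p below 0.05, against 40.7% of all genes.

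Of the genes that did not pass, 11 changed sign under at least 1 alternative, none with a call. With quantile normalization Mvk gave -0.0052, Abca1 -0.0156 and Npc2 -0.051, and in the authors' value table -0.0073, -0.011 and -0.0415. With normexp Lss gave -0.0346, Nsdhl 0.039, Fads2 0.0715 and Abca1 -0.0122, and with normexp and quantile normalization Mvk gave -0.0012, Lss -0.0318, Nsdhl 0.0511, Fads2 0.0251, Abca1 -0.0511 and Npc2 -0.0832. With the mean of a gene's probes Lss gave -0.0605, Insig2 0.0267 and Elovl5 -0.127. Leaving out 1 array, Mvk ran from -0.0213 to 0.0997, Lss from -0.0605 to 0.0711, Nsdhl from -0.151 to 0.0576, Srebf2 from -0.125 to 0.0154, Stard4 from -0.206 to 0.367, Fads2 from -0.359 to 0.0726, Abca1 from -0.0359 to 0.0926 and Pltp from -0.0668 to 0.0457.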
